A study of Vigna unguiculata subsp. sesquipedalis with 24 samples.

Results

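Drought can move the transcriptome of a plant in different ways above and below ground, and the organ by drought interaction measures that difference gene by gene. It was determined here for the asparagus bean landrace B128 as the drought response of the root (drought-stressed minus well-watered) minus the drought response of the leaf, on the log2 scale. The contrast rests on 12 of the 24 arrays of the series, chosen by the source name in the labels, with 3 arrays in each of 4 groups: well-watered leaves, drought-stressed leaves, well-watered roots and drought-stressed roots. The other 12 arrays hold the same groups of the landrace B47 and served to estimate the spread between replicates and as a comparison. The labels describe B128 as isohydric like and B47 as anisohydric like, wording that may not match the plants' water relations, was not tested on these arrays and underlies no result here. All plants were untransformed landraces, 16 days old when irrigation was withheld from the stressed pots, and organs were taken on day 15 of the treatment, and both plants of a pot were combined. The leaf material was limited to the side leaflets of the first trifoliate, so other leaves are not represented, and the single harvest cannot show how either response developed.

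Roots sense drying soil and take up water and minerals, whereas leaves lose water through stomata and fix carbon. Abscisic acid made under water deficit is perceived by receptors of the PYR/PYL family, which then inhibit protein phosphatases 2C and release the kinases that close stomata and switch on protective genes. Known organ-specific elements of the drought response include the deposition of cuticular wax on leaves, a decline of photosynthesis genes in leaves, and changes in uptake systems and wall chemistry in roots.

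Each array reads 29471 unigenes (assembled cowpea transcript sequences, named here by their UP12 codes) with 4 probes of 60 bases per unigene, and values are given as log2 of the deposited normalized intensity. Probes differ in brightness, so levels are compared between samples and never between unigenes. Replicate arrays of B128 correlated, across unigenes, with an r of 0.96 (well-watered leaves) to 0.994 (drought-stressed roots). The labels of the 3 drought-stressed root arrays name the root in one field and leaves in another, and they were taken as roots. Their r with the mean of well-watered roots was 0.894 to 0.907, against 0.733 to 0.766 with that of well-watered leaves. The 24 leaf markers (light-harvesting, photosystem and Rubisco unigenes) had a mean level of 6.69 to 6.85 on these 3 arrays, against 9.72 to 10.04 in drought-stressed leaves and 6.85 to 7.99 in well-watered roots. The 10 root markers (iron, nitrate and sulfate acquisition) lay close together in the stressed organs, with a mean of 7.54 to 7.61 in drought-stressed roots and 7.32 to 7.45 in drought-stressed leaves, whereas well-watered roots had 10.62 to 11.31 and well-watered leaves 7.85 to 8.48. Of these markers, 22 of 24 were higher in the well-watered leaf and 7 of 10 in the well-watered root. Unigene names are those of the study's gene tables, which cover 2206 unigenes (7.49% of the array) that the study selected for their response to drought on these same arrays. The named lists below are therefore not independent of the response, and a unigene without a description is unnamed here.

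Responses differed between the organs for about 1 unigene in 6 (16.4%). At a fold difference of at least 2 and a false discovery rate (FDR) of at most 0.01, 2487 unigenes (8.44% of those tested) had a root response above the leaf response and 2334 (7.92%) had one below it. These split into 51.6% above and 48.4% below, and the median interaction of all unigenes was 0.07. The split depends on the scaling of the arrays: when arrays were scaled to equal levels of the 8 yeast control entries, 24.1% were above (1240) and 75.9% below (3899), with a median of -0.381. The control entries themselves had a mean interaction of 0.446, highest in drought-stressed roots for each of the 8. In the root, 3096 unigenes rose (10.5%) and 3310 fell (11.2%), and in the leaf 1859 rose (6.31%) and 2461 fell (8.35%). Of the 2206 described unigenes, 20.1% were called above and 31.9% below, with a median interaction of -0.45. Counts of the named lists are to be read against these shares. The plot of root against leaf responses shows called unigenes along both axes, far from the diagonal of equal responses. In a bulk sample, fewer cells of a type and less RNA per cell cannot be told apart.

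**Figure D1:**
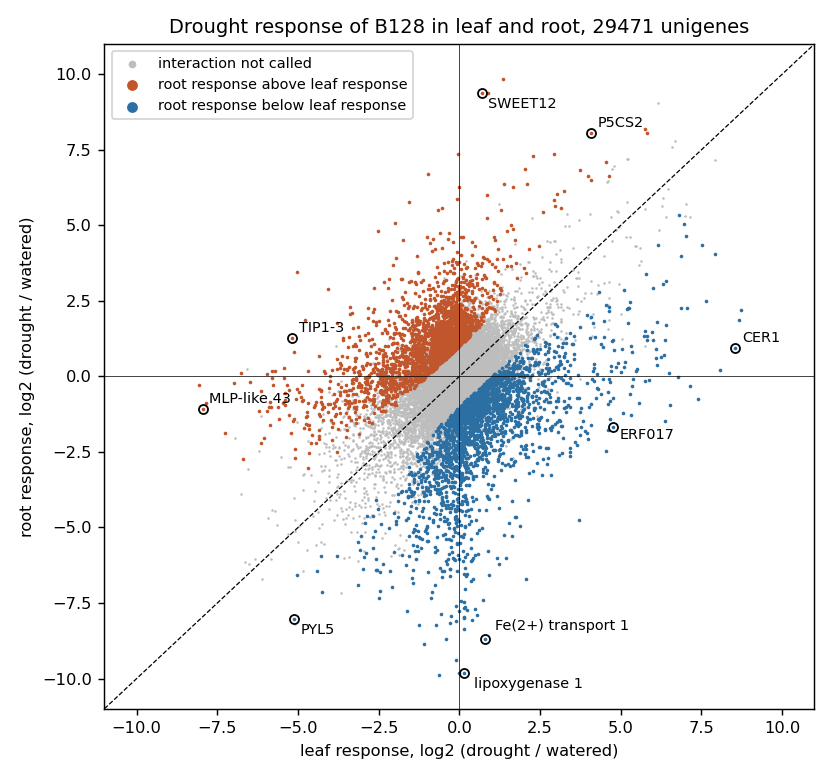
Drought response of B128 in the leaf (x axis) and the root (y axis), log2 of drought-stressed over well-watered, for 29471 unigenes. The dashed line marks equal responses, 2487 unigenes called above it are orange and 2334 called below it are blue, and 9 described unigenes are circled.

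Most called differences came from a response called in 1 organ alone. Above the leaf response, 1184 unigenes rose in the root without a called change in the leaf, and 675 fell in the leaf without a called change in the root. Below it, 1156 fell in the root alone and 537 rose in the leaf alone. Opposite called responses were found for 312 unigenes, of which 139 fell in the leaf and rose in the root and 173 rose in the leaf and fell in the root. A further 390 above and 323 below were called by the interaction with neither organ's response called. Weak signal accompanied part of the 1-organ classes. Of the 1156 unigenes that fell in the root alone, 509 had leaf means among the lowest 25% of B128 intensities (log2 below 8.14) under both conditions, and of the 675 that fell in the leaf alone, 224 had root means there. Without detection calls, it cannot be told whether these were above background in the other organ, and the part of this in the result was not tested.

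**Figure D2:**
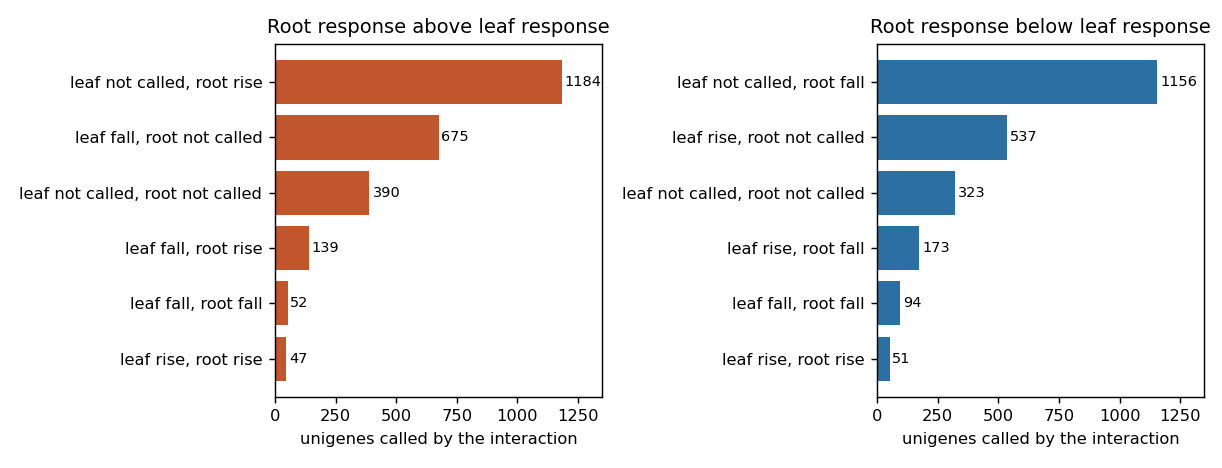
Number of unigenes called by the interaction in each combination of leaf and root response, above the leaf response on the left and below it on the right. Root responses with no called leaf response are the most frequent class in both directions, with 1184 and 1156 unigenes.

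Read the other way round, the interaction is a change in the difference between organs. Drought made the root minus leaf difference smaller in size for 1540 of the 2487 unigenes above (61.9%) and for 1526 of the 2334 below (65.4%). Among the unigenes below, the median size of that difference went from 2.03 in well-watered plants to 1.14 in drought-stressed plants, and among those above from 1.49 to 1.12. The sign of the organ difference changed in 1173 and 961 unigenes. Both sets were selected by the same arrays, so these counts describe the called unigenes and carry no test.

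Among the unigenes with the highest interactions were a sugar transporter and 2 chalcone synthases that rose in the root. SWEET12 (UP12_17067), whose Arabidopsis counterpart exports sucrose for phloem loading, had the highest interaction of all. Its log2 intensity was 13.07, 12.83 and 13.33 in well-watered leaves and 13.59, 13.93 and 13.79 in drought-stressed leaves, but 4.70, 4.44 and 4.44 in well-watered roots and 13.83, 14.12 and 13.73 in drought-stressed roots. The drought-stressed root thus reached the level of the leaves, and the 3 well-watered root arrays stood alone at the low end. Its root response was 9.37 ± 0.30 (SE; 660-fold), its leaf response 0.69 ± 0.30 was not called, and the interaction was 8.67 ± 0.42 with an adjusted p of 5.6e-11 (limma, n = 3 per group). The dim signal of the well-watered root was not shown to be above background here. If it is not, the measured root fold and interaction of this unigene are lower bounds in size. A second sugar transporter of this family, SWEET1 (UP12_15197), stood at 8.35, 9.06 and 7.85 in well-watered roots and 14.25, 14.50 and 14.10 in drought-stressed roots, with no overlap. Its leaf arrays overlapped between treatments, from 8.86 to 10.27 in well-watered and from 9.17 to 9.63 in drought-stressed plants, and its interaction was 5.93 ± 0.45 (adjusted p = 1.9e-08). The family did not move as one, nor did unigenes of the same description. A second SWEET12 unigene (UP12_6225) rose in the leaf by 5.76, with a root response of 0.99 that was not called. Its interaction of -4.76 was not called (adjusted p = 0.089, limma). A second SWEET1 unigene (UP12_14704, -0.84, not called) rose by 2.90 in the leaf and 2.06 in the root. SWEET9 (UP12_18908) and an MtN3-like unigene (UP12_2019) were called below, with leaf responses of 7.53 and 7.93 against root responses of 4.36 and 4.04. Of 16 sugar transport unigenes, 4 were above and 6 below (37.5%), with a median of -0.93, near the shares of all 2206 described unigenes (20.1% above and 31.9% below, median -0.45).

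Chalcone synthase, which commits phenylpropanoid precursors to flavonoids, was called in both directions. The unigene UP12_18112 rose in the root from 5.43, 4.56 and 5.00 to 14.91, 14.76 and 14.82, while its leaf arrays overlapped, at 3.88, 6.77 and 5.14 in well-watered and 7.33, 4.88 and 7.65 in drought-stressed plants. Its interaction was 8.47 ± 1.16 (adjusted p = 2.2e-05), and that of UP12_19862, with the same pattern, was 8.49 ± 0.94 (adjusted p = 2e-06). Another chalcone synthase unigene, UP12_11946, did the reverse. It rose in the leaf from 4.12, 4.85 and 4.52 to 9.18, 9.34 and 8.63 and fell in the root from 9.44, 8.18 and 10.78 to 6.77, 6.27 and 7.93, which gave an interaction of -7.03 ± 0.85 (adjusted p = 5.7e-06). The other chalcone synthase unigenes of the list (UP12_108, UP12_11116, UP12_11400, UP12_14338, UP12_25922 and UP12_28747) were not called by the interaction, at -2.22 to -1.51. Each of them fell in the root, with responses of -2.87 to -2.11, and none had a called leaf response. Chalcone synthases form a gene family of similar sequence, and cross-hybridization between its members was not tested. In the list of 37 flavonoid and phenylpropanoid unigenes, 15 were above and 6 below, with a median of 0.65, or 40.5% and 16.2% against those shares of the described unigenes. The members above included phenylalanine ammonia-lyase, the entry enzyme of the pathway (UP12_8078, 3.19; UP12_1934, 3.00), and cinnamyl alcohol dehydrogenases of lignin synthesis (UP12_11705, 2.88; UP12_3529, 2.47). All 4 of these fell in the leaf, by 3.11 to 3.87, with root responses between -0.87 and -0.23. Without the third array of well-watered leaves, 10 members were below instead of 6, and with the yeast controls set equal 11 were above and 9 below.

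Other described unigenes at the high end combined a leaf fall with a root rise. Pathogenesis-related protein 5 (UP12_11547), a thaumatin-like defence protein, went from 12.89, 12.50 and 12.13 to 10.45, 10.94 and 10.11 in the leaf and from 8.02, 7.93 and 8.07 to 13.11, 13.00 and 13.13 in the root. The order of the organs was thus exchanged by drought, and no 2 groups of the same organ overlapped. Its interaction was 7.08 ± 0.45 (adjusted p = 2.7e-09). E-beta-ocimene synthase (UP12_17477), an enzyme of monoterpene volatiles, fell in the leaf from 15.25, 14.69 and 15.02 to 10.22, 10.12 and 10.31 and rose in the root from 8.53, 7.03 and 7.00 to 9.51, 9.14 and 9.55, with an interaction of 6.65 ± 0.40 (adjusted p = 1.3e-09). A unigene similar to peptide transporters (UP12_3184) also crossed, with responses of -1.57 ± 0.40 in the leaf and 5.76 ± 0.40 in the root. The unnamed unigene UP12_1576 had the second highest interaction, 8.51 ± 0.83, with responses of -5.04 and 3.46.

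**Figure D3:**
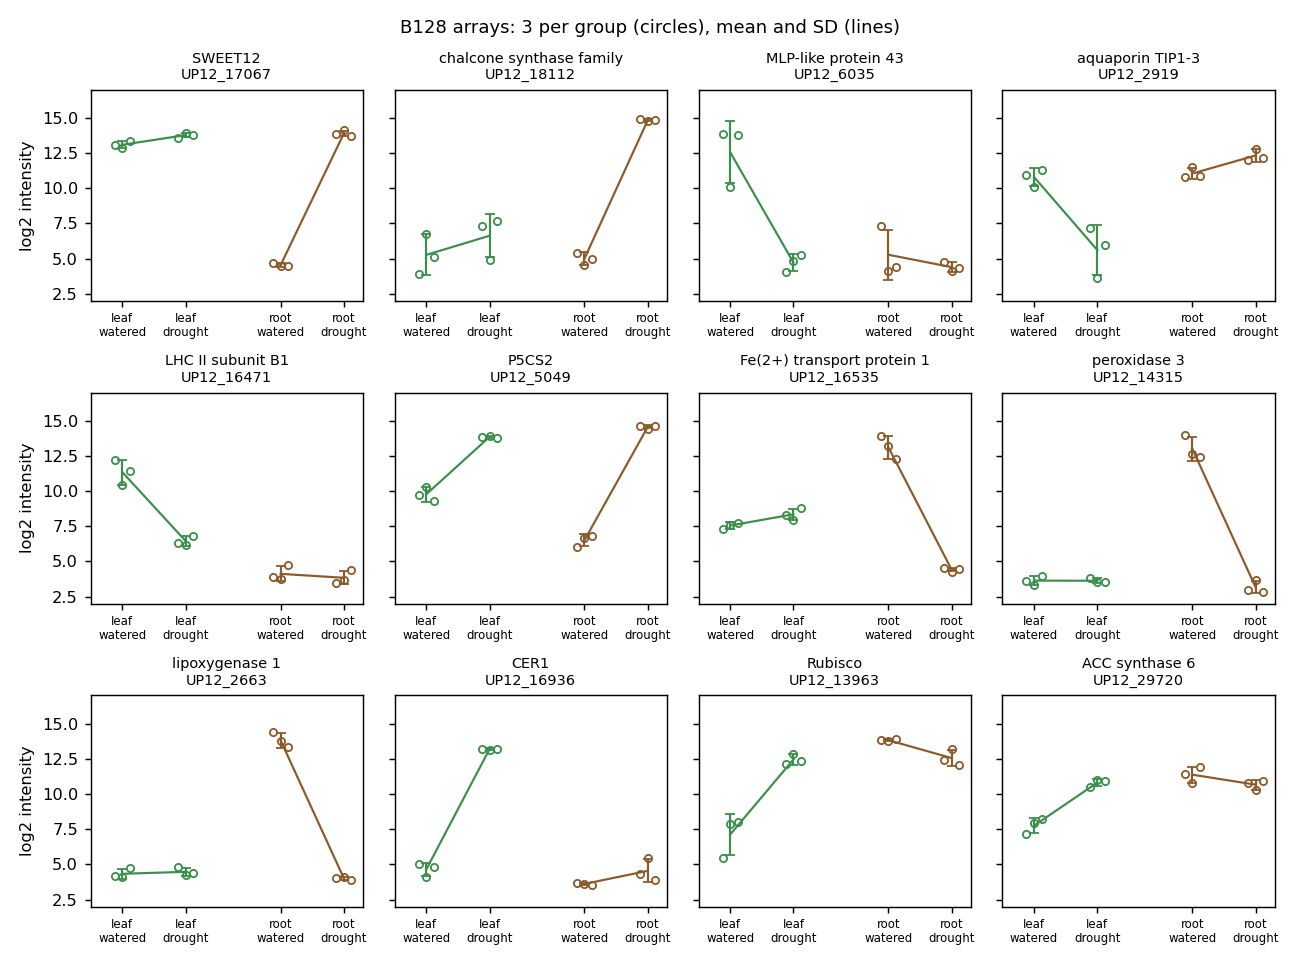
Log2 intensity of 12 unigenes on the 12 arrays of B128, with leaf groups in green and root groups in brown. Circles are single arrays, and lines join group means with SD bars (n = 3). SWEET12 rises in the root to about its leaf level, Fe(2+) transport protein 1, peroxidase 3 and lipoxygenase 1 fall in the root to 4.41, 3.17 and 4.01, and CER1 rises in the leaf to 13.19.

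Photosynthesis unigenes were mostly above, with falls in the leaf. Of 24 photosynthesis unigenes, 14 were above (58.3%) and 2 below (8.33%), with a median interaction of 2.32, a median leaf response of -2.59 and a median root response of -0.44. These 24 are also the leaf markers, and 19 of them fell in the leaf and 2 rose, while 1 fell and 1 rose in the root. The light-harvesting complex II subunit B1 unigene UP12_16471, which binds antenna chlorophyll, had 12.18, 10.40 and 11.44 in well-watered leaves and 6.32, 6.19 and 6.84 in drought-stressed leaves. Its root arrays stayed between 3.49 and 4.73 in both conditions, near the bottom of the scale, and its interaction was 4.61 ± 0.49 (adjusted p = 1.2e-06). Other photosystem unigenes above included UP12_29032 (light-harvesting subunit 6 of photosystem II, 3.67), CP26 (UP12_26104, 3.14) and photosystem I subunit H-1 (UP12_13071, 2.71). The 2 members below were both annotated as ribulose bisphosphate carboxylase and went against the list. UP12_13963 had 5.46, 7.90 and 7.99 in well-watered leaves but 13.83, 13.73 and 13.90 in well-watered roots, and rose in drought-stressed leaves to 12.11, 12.87 and 12.37, with an interaction of -6.60 ± 0.78 (adjusted p = 4.2e-06). UP12_16180, annotated as small chain 1A, behaved likewise, with -6.10 ± 0.62. A Rubisco unigene brighter in roots than in leaves is against its description, and the description was not tested. After removal of the 25% of unigenes with the lowest mean, 5 photosynthesis unigenes above were left. The median level of the list was 7.03 and 6.45 in well-watered and drought-stressed roots, and 12.22 and 10.15 in the corresponding leaves. Both root medians lay below 8.14, the cut for weak signal used above, and the part of this in the interaction was not tested.

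The largest leaf falls among described unigenes were those of MLP-like protein 43, a major latex protein homologue. UP12_6035 had 13.82, 10.05 and 13.81 in well-watered leaves and 4.07, 4.84 and 5.23 in drought-stressed leaves, a leaf response of -7.85 ± 0.84 (230-fold), whereas its root response of -0.88 ± 0.84 was not called. The second array of well-watered leaves was more than 3 log2 units lower than the others, yet above every drought-stressed leaf array. The interaction was 6.97 ± 1.18 (adjusted p = 0.0002), and that of UP12_16423, of the same description, was 6.88 ± 1.15.

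Aquaporins conduct water across the plasma membrane (PIP), the tonoplast (TIP) and other membranes (NIP). Of 15 aquaporin unigenes, 5 were above (33.3%) and 2 below (13.3%), with a median of 1.09, and 12 fell in the leaf and 7 in the root. TIP1-3 (UP12_2919) showed the widest difference, with 10.96, 10.09 and 11.31 in well-watered and 7.19, 3.64 and 5.97 in drought-stressed leaves, against 10.79, 11.47 and 10.87 in well-watered and 12.02, 12.81 and 12.13 in drought-stressed roots. Its leaf response was -5.18 ± 0.58, its root response of 1.28 ± 0.58 was not called, and its interaction was 6.46 ± 0.83 (adjusted p = 1e-05). The 4 other members above were PIP2 unigenes with interactions of 1.66 to 1.83: PIP2B (UP12_4147), PIP2-2 (UP12_10224) and both PIP2-4 unigenes (UP12_4036 and UP12_7565). Each fell in the leaf, with responses of -2.22 to -1.17, and none had a called root response (-0.47 to 0.65). The other PIP2-2 unigenes (UP12_14729, 0.68, UP12_7317, 1.04, and UP12_4626, 1.09) also fell in the leaf but were not called by the interaction. Of these, UP12_14729 had a called root fall as well (-1.25). In the opposite direction, NIP4-2 (UP12_6350) fell in the root from 13.59, 12.73 and 12.58 to 6.48, 6.23 and 6.78, while its leaf arrays went from 12.62, 12.46 and 12.51 to 11.83, 11.21 and 11.63. The leaf difference of 0.98 was under the fold threshold, and the interaction was -5.50 ± 0.35 (adjusted p = 3e-09). NIP1;2 (UP12_22099) rose in the leaf by 2.02 and fell in the root by 1.69. Another unigene of that description (UP12_22287) fell in the leaf by 1.64, and its interaction of 1.26 was not called. With the yeast controls set equal, 3 aquaporins instead of 5 were above.

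Most unigenes of protective solutes and proteins rose in both organs, some of them unequally. Delta-1-pyrroline-5-carboxylate synthase 2 (UP12_5049), which catalyses the committed step of proline synthesis, went from 9.75, 10.31 and 9.26 to 13.82, 13.93 and 13.79 in the leaf and from 6.04, 6.68 and 6.81 to 14.61, 14.44 and 14.64 in the root. It was lower in the root than in the leaf of well-watered plants and higher in the root of stressed plants. The rise was 16.8-fold in the leaf and 266-fold in the root, an interaction of 3.98 ± 0.53 (adjusted p = 1.5e-05). The other 2 synthase unigenes of this step were above as well (UP12_13800, 2.64; UP12_22455, 1.97). Galactinol synthase 2 (UP12_20374), the first enzyme of raffinose synthesis, rose in the root by 3.72 and had a leaf response of 1.02 that was not called, with an interaction of 2.70 ± 0.48 (adjusted p = 0.00034). Of 16 proline, raffinose and trehalose unigenes, 13 rose in the leaf and 13 in the root, 5 were above (31.2%) and 1 below (6.25%). The member below, trehalose-phosphate phosphatase I (UP12_2655, -4.52), rose in the leaf by 1.70 and fell in the root by 2.82. Both phosphatase A unigenes (UP12_3470 and UP12_3871) fell in the leaf, by 2.15 and 2.25. Late embryogenesis abundant (LEA) proteins, hydrophilic proteins of drying cells, had 7 unigenes, of which 6 rose in the leaf and 5 in the root. One, the D34 homologue UP12_10245, was above (2.44 ± 0.34; 16.8-fold in the leaf and 91-fold in the root) and 4 were below. Of those 4, LEA 4-5 (UP12_6513) rose by 6.14 in the leaf and 4.35 in the root and UP12_393 by 6.80 and 5.34, whereas 2 hydroxyproline-rich glycoproteins (UP12_8266 and UP12_430) fell in the root, by 1.51 and 1.03.

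Among the unigenes with the lowest interactions were an iron transporter, peroxidases and a lipoxygenase that fell in the root. Fe(2+) transport protein 1 (UP12_16535), the counterpart of the Arabidopsis iron uptake transporter of the root epidermis, had 13.89, 13.17 and 12.25 in well-watered roots and 4.50, 4.28 and 4.45 in drought-stressed roots. In the leaf it had 7.29, 7.62 and 7.74 in well-watered and 8.32, 7.95 and 8.77 in drought-stressed plants. The root response was -8.70 ± 0.32 (416-fold), the leaf response of 0.80 ± 0.32 was not called, and the interaction was -9.49 ± 0.45 (adjusted p = 4.8e-11). The stressed root thus ended below both leaf groups. Several other iron acquisition genes were also below: the transcription factor FER-LIKE IRON DEFICIENCY-INDUCED (UP12_19468, -3.60 ± 0.68), which activates that transporter in Arabidopsis, nicotianamine synthase 4 (UP12_1630, -6.49 ± 0.52) and 3 (UP12_19478, -4.11), which make a metal chelator, ferric reductase defective 3 (UP12_19326, -5.76), a citrate exporter that loads iron into the xylem, and the transcription factor ORG2 (UP12_2796, -6.51). Nicotianamine synthase 1 (UP12_8214, -1.34) and ferric reduction oxidase 5 (UP12_5849, 0.03) were not called, and the metal transporter Nramp3 (UP12_15731, 2.52) was above. The metal transporter ZIP10 (UP12_16567) fell in the root from 13.29, 12.69 and 11.68 to 3.79, 3.98 and 3.79. Zinc transporters 2 (UP12_2508, -4.89) and 5 (UP12_22289, -3.65) were below, whereas the zinc transporter 1 unigenes (UP12_18306, 0.31; UP12_15724, -2.15) were not called.

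The mineral uptake list was divided. Of 32 unigenes of the list, 13 were below (40.6%) and 10 above (31.2%), against 31.9% and 20.1% of the described unigenes. The list median was -0.05, against -0.45 for the described unigenes and 0.07 for all unigenes. The 10 root markers are among these 32, so the fall of the marker level in stressed roots and this list are not separate measurements. The members above included 4 sulfate and 2 nitrate transporters. Sulfate transporter 1.3 (UP12_5296) rose in the root from 8.11, 7.95 and 8.00 to 11.36, 12.05 and 11.35, while the leaf arrays lay between 9.86 and 10.05 in both conditions, with an interaction of 3.52 ± 0.26 (adjusted p = 1.3e-08). A further sulfate transporter (UP12_10934) fell in the leaf by 2.91 and rose in the root by 1.37, and both nitrate transporter 1:2 unigenes (UP12_29548 and UP12_29547) were above by 1.73 and 1.55. Nitrate transporter 1.7 (UP12_13752, -3.26) and the high-affinity nitrate transporter 3.1 (UP12_3349, -1.62) were below.

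Class III peroxidases, which cross-link and loosen the wall with hydrogen peroxide, were below in 13 of 21 unigenes (61.9%) and above in 2 (9.52%), with a median of -2.79. Of these 21, 19 fell in the root and 9 in the leaf, and none rose in either organ. Peroxidase 3 (UP12_14315) had 13.98, 12.63 and 12.42 in well-watered roots, 2.99, 3.68 and 2.85 in drought-stressed roots and 3.32 to 3.99 on the 6 leaf arrays. The stressed root thus fell to the low intensities at which the leaf already lay. Its measured interaction was -9.82 ± 0.54 (adjusted p = 3.2e-10, limma). If those intensities are background, the root fall is a lower bound in size. The leaf response is then not measured, and the size of the interaction is not bounded. Peroxidases 39 (UP12_18178, -9.29 ± 0.31) and 1 (UP12_19923, -9.24 ± 0.45) had the same pattern, with leaf arrays between 3.66 and 4.71. After removal of the 25% of unigenes with the lowest mean, 4 peroxidases below were left. The median level of the list was 5.40 and 4.77 in well-watered and drought-stressed leaves, and 13.46 and 9.58 in the corresponding roots.

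Lipoxygenase 1 (UP12_2663), which oxygenates polyunsaturated fatty acids, had the lowest measured interaction. It went from 14.37, 13.74 and 13.32 in well-watered roots to 4.04, 4.10 and 3.90 in drought-stressed roots, with 4.07 to 4.79 on the 6 leaf arrays. The measured root fall was 891-fold and the interaction -9.95 ± 0.45 (adjusted p = 2.4e-11, limma). If the dim signals are background, the root fall is again a lower bound in size. The leaf response is then not measured, and the size of the interaction is not bounded. The list of jasmonate, an oxylipin hormone, was matched by gene description and includes lipoxygenases and 12-oxophytodienoate reductases. Whether each member acts in jasmonate synthesis or signalling was not tested. Of the 14 unigenes, 8 were below (57.1%) and 3 above (21.4%), with a median of -2.80. Those below included 12-oxophytodienoate reductase 1 (UP12_10313, -6.80) and both TIFY 3B repressor unigenes (UP12_139, -2.86, and UP12_20962, -2.75). An allene oxide synthase (UP12_13515, 2.17) and allene oxide cyclase 3 (UP12_2391, 1.63) fell in the leaf and were above. Another allene oxide synthase (UP12_11668, -1.19) was not called. Among unigenes of other functions, a GDSL esterase/lipase (UP12_5236) had 14.18, 12.96 and 13.12 in well-watered roots and 5.99, 7.96 and 6.16 in drought-stressed roots, and rose in the leaf by 2.05. Its interaction was -8.76 ± 0.77 (adjusted p = 1.4e-07). A patatin-like protein (UP12_19178, -8.45) and a 2-oxoglutarate-dependent dioxygenase (UP12_771, -8.44) fell in the root alone.

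Wax synthesis genes mostly rose in the leaf, and few of them as much in the root. The cuticle wax list had 14 unigenes, 8 of them below (57.1%) and 1 above (7.14%). Its median leaf response was 3.04, its median root response 0.75 and its median interaction -2.50. CER1 (UP12_16936), which makes the alkanes of leaf wax, had 5.03, 4.09 and 4.79 in well-watered and 13.22, 13.12 and 13.22 in drought-stressed leaves, against 3.65, 3.63 and 3.55 in well-watered and 4.31, 5.46 and 3.86 in drought-stressed roots. Its leaf rise was 375-fold and its interaction -7.62 ± 0.44 (adjusted p = 6.8e-10). A maize gl1 homologue (UP12_16935), of a family needed for cuticular wax, went from 4.44, 3.87 and 4.07 to 12.23, 12.16 and 12.18 in the leaf and stayed between 3.83 and 4.49 in the root, with -7.85 ± 0.28 (adjusted p = 1.1e-12). The root was thus dim throughout, and only the 3 stressed leaf arrays were bright. A second gl1 homologue (UP12_22675) also rose in the root, by 2.19, but by 8.73 in the leaf. The fatty acyl-CoA reductase CER4 (UP12_29189, -5.47), which makes primary alcohols, and ECERIFERUM 3 (UP12_26496, -2.82) were below. The member above was a beta-ketoacyl-CoA synthase (UP12_16413, 3.59), of the enzyme class that elongates fatty acids for wax and suberin, with a root response of 2.69.

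**Figure D4:**
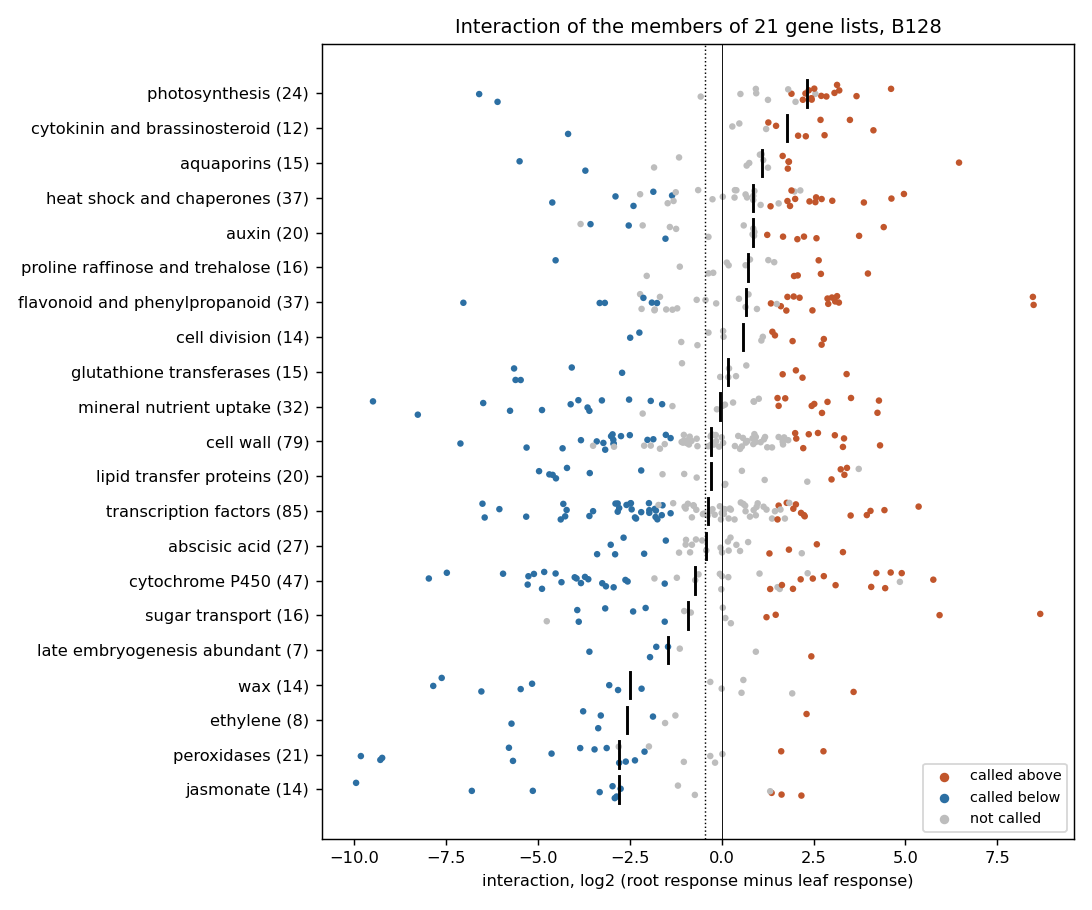
Interaction (log2, root response minus leaf response) of each member of 21 gene lists, with the number of members in parentheses. Orange and blue points are called above and below, grey points are not called, black bars are list medians and the dotted line is the median of all described unigenes (-0.45). Photosynthesis has the highest median (2.32) and jasmonate the lowest (-2.80).

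Abscisic acid synthesis genes rose in both organs. The 3 unigenes of 9-cis-epoxycarotenoid dioxygenase, the rate-limiting enzyme, had leaf responses of 2.60 to 2.82 and root responses of 1.90 to 2.83, and none was called by the interaction. For UP12_25297, with 6.83, 5.90 and 6.14 against 8.78, 9.28 and 9.28 in the leaf and 7.57, 8.07 and 8.18 against 11.14, 9.98 and 11.18 in the root, the interaction was 0.01 ± 0.56. A missed threshold does not show equal responses, and the SE is large beside the threshold of 1 log2 unit. Perception and signalling were less uniform. Among the receptors, PYL1 (UP12_14257) was above (2.59 ± 0.34), because it fell 20.5-fold in the leaf and 3.42-fold in the root. One of 3 PYL5 unigenes (UP12_29616) was below (-2.90 ± 0.48), with 13.49, 13.27 and 12.66 in well-watered and 4.86, 5.58 and 4.94 in drought-stressed roots. The other PYL5 unigenes (UP12_29343, 0.19; UP12_29344, 0.72) fell in both organs and were not called. PYL2 (UP12_6305) rose in the leaf by 1.42 and fell in the root by 1.25. Of the protein phosphatases 2C, number 12 (UP12_20169) was above (3.30 ± 0.33) and numbers 25 (UP12_15751, -3.39) and 2 (UP12_2940, -3.02) were below, each of the 3 with opposite called responses. Phosphatases 2CA (UP12_1741, -0.03), 56 (UP12_8966, 0.50) and both number 3 unigenes (UP12_14919, 0.24, and UP12_3728, 2.18) rose in both organs and were not called. A further phosphatase (UP12_12928, 1.83) rose in both and was above. Number 18 (UP12_19143) fell in both and was not called, and number 73 (UP12_1673, -1.52) fell in both and was below. Numbers 39 and 29 changed in the leaf alone and were not called. Whether each acts with the receptors was not tested. In all, 4 of 27 unigenes were above (14.8%) and 6 below (22.2%), both shares lower than those of the described unigenes. Leaving out any of 7 arrays (the third of well-watered leaves, the 3 of drought-stressed leaves, the first of well-watered roots or the first or the third of drought-stressed roots) left 2 above, and with the yeast controls set equal 2 were above and 10 below.

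Ethylene synthesis genes of both steps had root responses below those of the leaf. Of 8 unigenes, 5 were below (62.5%) and 1 above (12.5%), with a median of -2.58. The 1-aminocyclopropane-1-carboxylate (ACC) synthase 6 unigene UP12_29720, of the rate-limiting step, rose in the leaf from 7.15, 7.91 and 8.19 to 10.52, 10.99 and 10.91, while the root arrays overlapped at 11.40, 10.80 and 11.92 in well-watered and 10.76, 10.27 and 10.95 in drought-stressed plants. Its interaction was -3.77 ± 0.43 (adjusted p = 2.8e-06), and the other 2 ACC synthase unigenes gave -3.36 (UP12_19796) and -3.29 (UP12_3593). An ACC oxidase (UP12_522), of the last step, fell in the root from 14.20, 13.10 and 13.02 to 8.64, 8.75 and 7.89, with -5.72 ± 0.44 (adjusted p = 2.8e-08) and no called leaf response. Another ACC oxidase (UP12_15529) fell in the leaf and was above (2.31).

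Cytokinin and brassinosteroid unigenes were above in 8 of 12 (66.7%) and below in 1 (8.33%), with a median of 1.78, and 11 of them fell in the leaf. The brassinosteroid-6-oxidases 1 (UP12_23448, 4.13) and 2 (UP12_5008, 3.49), late enzymes of brassinosteroid synthesis, fell in the leaf by 1.95 and 2.04 and rose in the root by 2.18 and 1.45. The cytokinin receptor CRE1b (UP12_1490, 2.80) fell in the leaf by 3.13. The exception was a cytokinin riboside phosphoribohydrolase (UP12_2583, -4.18), an activating enzyme, which rose in the leaf by 4.26. With the yeast controls set equal, 5 of the 12 were above.

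Among the larger lists, 13 of 37 chaperones were above (35.1%) and 5 below (13.5%), with a median of 0.86. Of 85 transcription factors, 13 were above and 31 below (36.5%, median -0.38), near the 31.9% and -0.45 of all described unigenes. The DnaJ-domain chaperone unigenes UP12_12856 (4.96) and UP12_19341 (4.62) rose by 6.35 and 6.28 in the root and by less than 1.7 in the leaf, whereas heat shock protein 21 (UP12_5741, -4.61), a chloroplast chaperone, rose by 6.87 in the leaf and 2.26 in the root. With the yeast controls set equal, 8 chaperones were above and 8 below, and 7 transcription factors above and 36 below. Cytochrome P450 unigenes divided into 13 above (27.7%) and 21 below (44.7%) of 47, led by 71B34 (UP12_18521, -7.97) and 71B24 (UP12_19156, -7.48), which fell in the root. Of 79 cell wall unigenes, 9 were above (11.4%), 18 below (22.8%) and 52 not called, both called shares lower than those of the described unigenes. In the leaf 57 fell and in the root 64, with median responses of -2.50 and -2.40. Expansin A17 (UP12_20742, -7.11), which loosens walls, fell in the root alone. Without the second array of well-watered leaves, 14 instead of 9 cell wall unigenes were above, and with the yeast controls set equal 5 were above and 21 below. Glutathione S-transferase PHI 9 was represented by 3 unigenes (UP12_2664, UP12_17903 and UP12_1325) with interactions of -5.65 to -5.47 and leaf rises of 6.09 to 6.35, and they may be parts of 1 transcript. In the glutathione transferase list, 4 of 15 unigenes were above (26.7%) and 5 below (33.3%). Of 20 auxin unigenes, 7 were above (35.0%) and 3 below (15.0%), but 3 and 5 with the yeast controls set equal. With 1 B128 array left out, 4 to 6 auxin unigenes were above and 1 to 4 below. Of 14 cell division unigenes, 5 were above (35.7%) and 2 below (14.3%), but 3 and 3 with the yeast controls set equal, and 0 to 2 below with 1 B128 array left out. The lipid transfer list had 4 of 20 above (20.0%) and 7 below (35.0%), near the shares of the described unigenes. Without the third array of drought-stressed roots, 3 were below.

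Most called unigenes had an interaction of the same sign in the other landrace. In B47, 2185 unigenes (7.41%) were above and 2597 (8.81%) below, and the 2 lines have no array in common in this contrast. Of the 2487 unigenes above in B128, 2369 had the same sign in B47 (95.3%) and 1184 were also called above (47.6%). Of the 2334 below, 2043 had the same sign (87.5%) and 1330 were also called below (57.0%). Across all unigenes, Pearson's r between the interactions of the 2 lines was 0.715, as a description over unigenes that are not independent. SWEET12 (9.51 in B47), the chalcone synthase UP12_18112 (8.52), Fe(2+) transport protein 1 (-9.00), peroxidase 3 (-7.86) and CER1 (-7.85) had values in B47 of the same sign and similar size, and none of these was called as different between lines.

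**Figure D5:**
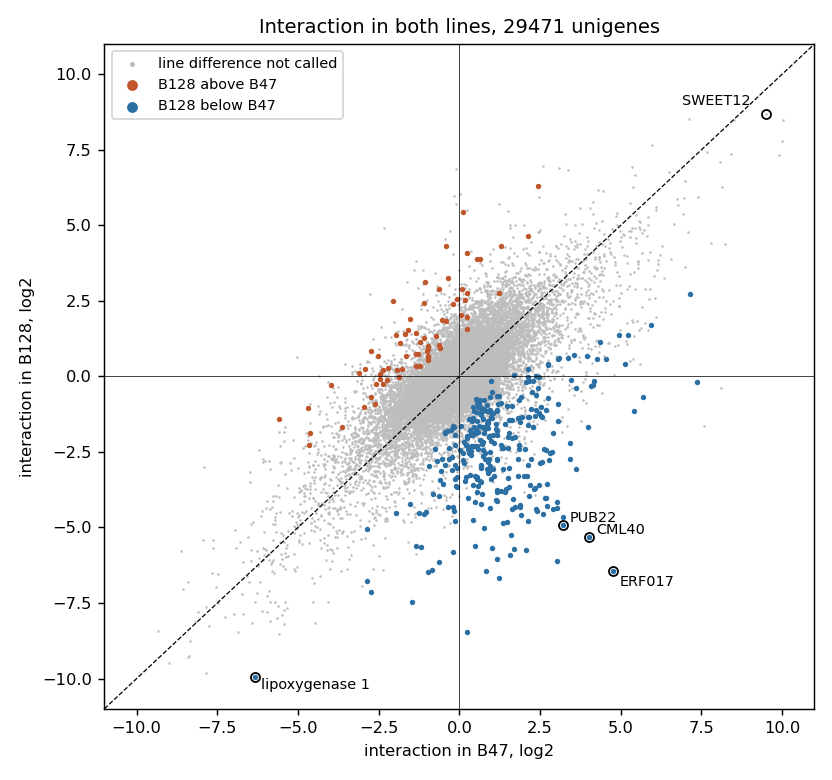
Interaction in B47 (x axis) and B128 (y axis), log2, for 29471 unigenes, with the dashed line of equal values. Orange points (69) are called higher in B128 and blue points (309) lower, and 5 described unigenes are circled, of which SWEET12 is not called.

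A test of the difference between lines called 69 unigenes higher in B128 (0.234%) and 309 lower (1.05%). The 69 ranged from 35 (without the third array of well-watered roots of B47) to 139 (without the second of well-watered leaves of B128), and with array weights 727 were higher and 997 lower. The 309 differed between lines chiefly in the leaf. For 255 of them the well-watered leaf was the group with the largest difference between B128 and B47, and 298 were lower in B128 in that group, by a median of 1.97. In drought-stressed leaves the median difference was 0.79 in the other direction, and in roots 0.45 when well-watered and 0.07 under drought. In 90 of the 309 the leaf response was a called rise in B128 and a called fall in B47. Because the unigenes were chosen by a contrast of the same groups, these values describe them and carry no test.

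The unigene with the largest line difference was the ethylene-responsive transcription factor ERF017 (UP12_312), at -11.20 ± 0.93 (adjusted p = 1.5e-06). In B128 it rose in the leaf from 3.90, 6.70 and 5.31 to 10.81, 9.92 and 9.50, and in B47 it fell from 12.87, 11.81 and 12.88 to 4.95, 4.88 and 4.88. In roots both lines fell, from 13.39, 13.38 and 13.83 to 11.98, 12.02 and 11.56 in B128 and from 13.19, 12.78 and 13.11 to 10.16, 9.94 and 10.38 in B47. The interaction was thus -6.45 in B128 and 4.75 in B47, with leaf groups of the 2 lines in opposite order. Unigenes with this reversal, chosen after their values were seen, included calcium sensors and ubiquitin ligases of stress signalling. The calmodulin-like CML40 (UP12_3527) had -5.32 in B128 and 4.03 in B47, a calmodulin (UP12_2558) -6.12 and 3.01, the U-box ligase PUB22 (UP12_15004) -4.92 and 3.21, and U-box protein 21 (UP12_617) -3.95 and 2.17. ACC synthase 6 (UP12_29720) had a line difference in the same direction, -4.92 ± 0.61 (adjusted p = 8.5e-05, limma). Its interaction was -3.77 in B128 and 1.15 in B47, the latter not called, so a reversal is not shown. The dehydration-responsive element-binding protein 1D (UP12_15489) had -6.05 in B128 and 1.15 in B47, the latter not called. Among the root-lowered unigenes, lipoxygenase 1 differed in size only, with -9.95 in B128 and -6.34 in B47. Its drought-stressed roots stood at 4.04, 4.10 and 3.90 in B128 and 5.32, 6.13 and 5.91 in B47.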

How the data were processed

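The authors hybridized Cy3-labelled cDNA to custom 1-colour NimbleGen arrays, extracted intensities with NimbleScan, quantile-normalized the probe values and summarized 4 probes per unigene by RMA. The deposited table gives linear normalized intensity for 29471 unigenes plus 8 yeast controls. Quantile normalization takes out any shift common to most transcripts in an organ. Version details were not given in the sources used here. The intensities were log2-transformed without a pseudocount. With limma 3.58.1 in R 4.3.3, 1 mean for each of the 8 groups was fitted over 24 arrays (16 residual and 2.88 prior degrees of freedom), and contrasts were tested by the moderated test with Benjamini-Hochberg adjustment over all 29471 unigenes. A call required a 2-fold difference or more and an FDR no higher than 0.01. Tables and plots were made in Python 3.11.15. With simulated data the procedure recovered 69% of 100 unigenes given an interaction of 2 and 92% of 100 given 4 (log2). The change was put into drought-stressed roots of B128 only, with normal noise and no other drought response. Far fewer unigenes were changed there than were called here, so these shares need not hold for these data.

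The yeast controls stayed out of the tests. Replicates are described as biological in the labels, and the number of arrays limits the precision. Leaflets and roots were harvested from each plant, so leaf and root arrays of a treatment may share pots. Whether replicate numbers match pots across organs is not known, and they were not used for pairing. No 2 arrays held identical values. The unigenes named were, among calls that held with each of the 12 B128 arrays left out (3411 of 4821), the 8 highest and 8 lowest with an informative description (at most 2 per description), the 2 most extreme each way, up to 3 members per list, and, as values, members of 5 lists (photosynthesis, aquaporins, abscisic acid, ethylene, mineral uptake). Further list members were named as examples after their values were seen. The comparison, the lists and the rule were chosen with earlier results of these data known. Columns of the study's own fold changes were not used.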

Additional observations from a re-analysis of the deposited data

Results flagged for a closer look

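The drought response differed between the organs for 2487 unigenes above and 2334 below the leaf response, each by the test of the difference itself, and between the lines the interaction differed for 378 unigenes. A cinnamyl alcohol dehydrogenase (UP12_11705) was called higher in B128, with interactions of 2.88 in B128 and 0.07 in B47. Other unigenes named had a line difference (B128 minus B47, log2, limma) below zero. They were ERF017 (UP12_312, -11.2), CML40 (UP12_3527, -9.35), calmodulin (UP12_2558, -9.13), PUB22 (UP12_15004, -8.13), a MATE efflux protein (UP12_1724, -7.4), DREB1D (UP12_15489, -7.2), CML39 (UP12_14167, -6.68), a galacturonosyltransferase-like protein (UP12_7331, -6.22), U-box protein 21 (UP12_617, -6.12) and a GRAM domain protein (UP12_3172, -6.05). Smaller differences were found for the hydroxyproline-rich LEA glycoproteins (UP12_8266, -5.8; UP12_430, -3.12), ACC synthases (UP12_3593, -5.1; UP12_29720, -4.92; UP12_19796, -4.89), glutathione S-transferase PHI 9 (UP12_2664, -4.46; UP12_17903, -4.26), lipoxygenase 1 (UP12_2663, -3.61) and protein phosphatases 2C (UP12_15751, -3.27; UP12_2940, -2.96). Of these, CML40, calmodulin, PUB22, the MATE protein, CML39, U-box protein 21 and the GRAM domain protein were chosen after their values were seen.

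The 8 yeast control entries, which stayed out of the tests, had a mean interaction of 0.446 (log2) and were above zero in each case. Their part in the interaction was not tested beyond the scaling that sets them equal. Single unigenes were not searched for deviating arrays, since each group held 3. Estimated array weights were lowest for the second array of drought-stressed roots of B128 (0.201) and highest for the first (11.7), but their estimation stopped before convergence.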

How the results depend on the processing

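No named unigene reversed its direction under the alternatives tried. The median of 2 lists changed sign with the scaling, to -0.26 for glutathione transferases (0.18) and to -0.05 for cell division (0.57), as did the median of all unigenes with the yeast controls set equal (-0.381). The share above was 51.6%, and 24.1% in that scaling, 39.1% in a test against a fold of 2 and 46.6% without moderation. The unmoderated model on the 12 B128 arrays called 993 unigenes above, 1138 below and 122 with opposite responses. A test against a fold of 2 called 463, 721 and 15, and 105 line differences. With the yeast controls set equal, 1240 were above and 3899 below, and 3574 of the 4821 called unigenes stayed called. Line differences, 378 in all, numbered 221 with a replicate block within line and treatment, 804 at an FDR of 0.05 and 1724 with array weights, whose estimation stopped before convergence. Of these, 24, 248 and 727 were higher in B128. With 1 array left out in turn, 2009 to 2785 were above, 1985 to 2570 below, 259 to 334 opposite and 286 to 493 line differences were called. The other alternatives kept these counts within 1.5 times. Named unigenes lost their call in 111 of 4364 comparisons. For 122 of the 170 named unigenes the call held with each of the 12 B128 arrays left out. Most unigenes were named by that rule, so a low number of losses was partly fixed in advance. Arrays with the same replicate number did not deviate together (r from -0.159 to 0.12 over 6 pairs). Because these numbers may not match pots, this does not settle pairing by pot. With the number as a replicate block, 2437 were above, 2281 below and 303 opposite. With the replicate block within line and treatment, 2070 were above and 1968 below. Without detection calls, low intensities limit what can be said of organs in which a unigene is dim, and removal of the 25% with the lowest mean left 1795 above and 1593 below.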
